A study of Cavia porcellus with 9 samples.

Results

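Monocarboxylate transporters carry lactate, pyruvate and ketone bodies, together with a proton, across cell membranes, and HCAR1 is a cell surface receptor for lactate. The gene set described here lists 9 genes: 7 of the SLC16 transporter family, Bsg, which encodes the chaperone basigin, and Hcar1. Members are the rows of the count table that carry these gene names. Of the 9 listed, 8 are among the 19962 genes of the table, and Slc16a1 was not analysed here. The set was chosen by the measured CPM of Slc16a6 and Hcar1 over the green, blue and white libraries: Slc16a6 lay higher under green light and Hcar1 higher under blue light. The differences that picked them are therefore given as descriptions without a test, and the tests below concern the other 6 members and, for Slc16a6, blue against white. The exception is a count of members called under alternative settings in the closing section. It includes both picked genes, and nothing is read from it for them. All 8 members passed the filter on low counts. Hcar1 needed the blue libraries for this and did not pass in the green and white libraries alone, so its presence among the tested genes depends on the group where it was high. Hcar1 is therefore described without a test in every comparison.

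The retinas came from male tri-color Dunkin-Hartley guinea pigs, obtained at 2 weeks of age. The animals then lived under green, blue or white light, with equal light and dark phases, for 8 weeks. The labelled age at sampling is 12 weeks. Each light group has 3 libraries, and in each group 2 of these carry the same animal number (libraries 1 and 2 of green, 2 and 3 of blue, 1 and 2 of white), so that 6 animal labels stand behind 9 libraries. The pairs of blue and white carry 2 different eye codes, od and os, whereas libraries 1 and 2 of green carry the same code, od, and differ in their titles by the suffix "-B". They may therefore be repeats of 1 retina, but they were not 1 library deposited again: their counts differed far beyond counting error, with a chi-square of 73.2 times its degrees of freedom over 15446 tested genes, where other pairs within a light group had 19.7 to 75.2. They were counted as 2 of the 3 green libraries. The titles of library 1 of blue and library 3 of white share part of their animal label and were taken to name different animals. Libraries entered the tests as if independent, so p-values measure the spread between libraries, part of which is a spread between samples of an animal. The sources used here do not give the wavelengths or intensities of the lights.

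Photoreceptors turn much of their glucose into lactate even when oxygen is present, and this lactate must leave the cell. In the outer retina it passes to the pigment epithelium, a pigmented layer that lies behind the photoreceptors and takes up lactate on its apical face and releases it towards the choroid on the other side. Slc16a8 (MCT3) is the transporter of that basal face and is a hallmark of the pigment epithelium. Slc16a3 (MCT4) is a low-affinity transporter known from cells that export lactate, and Slc16a7 (MCT2) a high-affinity transporter known from neurons. Basigin brings MCT1, MCT3 and MCT4 to the membrane, and animals without it lose photoreceptor function. The guinea pig retina has no vessels of its own and is supplied from the choroid.

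The libraries held 62155041 to 74979806 counts each, and levels are given as CPM, the share of a library's counts scaled by TMM, which do not correct for gene length, so levels are not compared between genes. Rod markers were abundant in every library, as the tissue label calls for: Gnat1, the alpha subunit of rod transducin, lay between 10030 and 12870 CPM, a marker chosen as the example after its values were seen. The summed level of 12 pigment epithelium markers ran from 266.9 to 762.6 CPM under green light. It ran from 551.4 to 753.6 CPM under blue and from 333.9 to 787.3 CPM in white. Rgr, with 177.1 to 366.8 CPM over the libraries, weighs heavily in this sum, and the markers did not all move together. In library 2 of green Rpe65, Best1, Pmel, Lrat, Rdh5, Mlana, Ttr and Rgr were the highest of the green libraries. Tyr, Tyrp1, Dct and Slc45a2 were the lowest there. The summed level of 13 lens markers lay between 74.6 and 91.6 CPM under green light, 50.8 and 84.9 CPM under blue, and 31.9 and 70.6 CPM in white, with no marker at 0 in the green and blue libraries, 2 at 0 in library 1 and 1 at 0 in library 3 of white. In bulk tissue, fewer cells of a type and less RNA per cell cannot be told apart.

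Among the 6 members that were not picked for their values, no difference between light groups passed the test. Slc16a3 came nearest, with its highest levels under green light. Slc16a8 varied 24.3-fold over the libraries, along with the summed level of the pigment epithelium markers. Its 3 light groups overlapped, and its differences between lights had wide intervals. Bsg was nearly level, within 1.37-fold over all 9 libraries. Outside the test, Slc16a6 stood in the order green, blue, white and Hcar1 in the order blue, white, green, each with no overlap between the 3 groups. Both genes were picked for their levels, so nothing is read from this separation. In any single pair of groups, separation in the same direction held for 4.74% to 7.23% of all genes. The share of all genes with all 3 groups apart was not counted.

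In edgeR's quasi-likelihood test with Benjamini-Hochberg adjustment over 15469 genes, 0 of the 6 members not picked for their values had an adjusted p under 0.05 in any of the 3 comparisons. Over all genes the same rule called 0.00646% of genes between green and white, 0.00646% between blue and white and 0% between green and blue. At an unadjusted p under 0.05 stood 1 of the 6 between green and white and 1 between green and blue, Slc16a3 in both, and 0 between blue and white. The shares of all genes at that unadjusted p were 5.81%, 7.18% and 4.45% in that order. DESeq2 called 0 of these 6 in each comparison, where it called 0.155% of all genes between green and white, 0.181% between blue and white and 0.31% between green and blue. As a description that includes the 2 genes picked for their values, the median log2 difference of the 8 members was 0.20 between green and white, 0.34 between blue and white and -0.01 between green and blue. The medians over all genes tested were 0.009, 0.0048 and -0.0025. Because the 2 picked genes enter the medians of the members, nothing is read from the comparison with all genes.

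**Figure D1:**
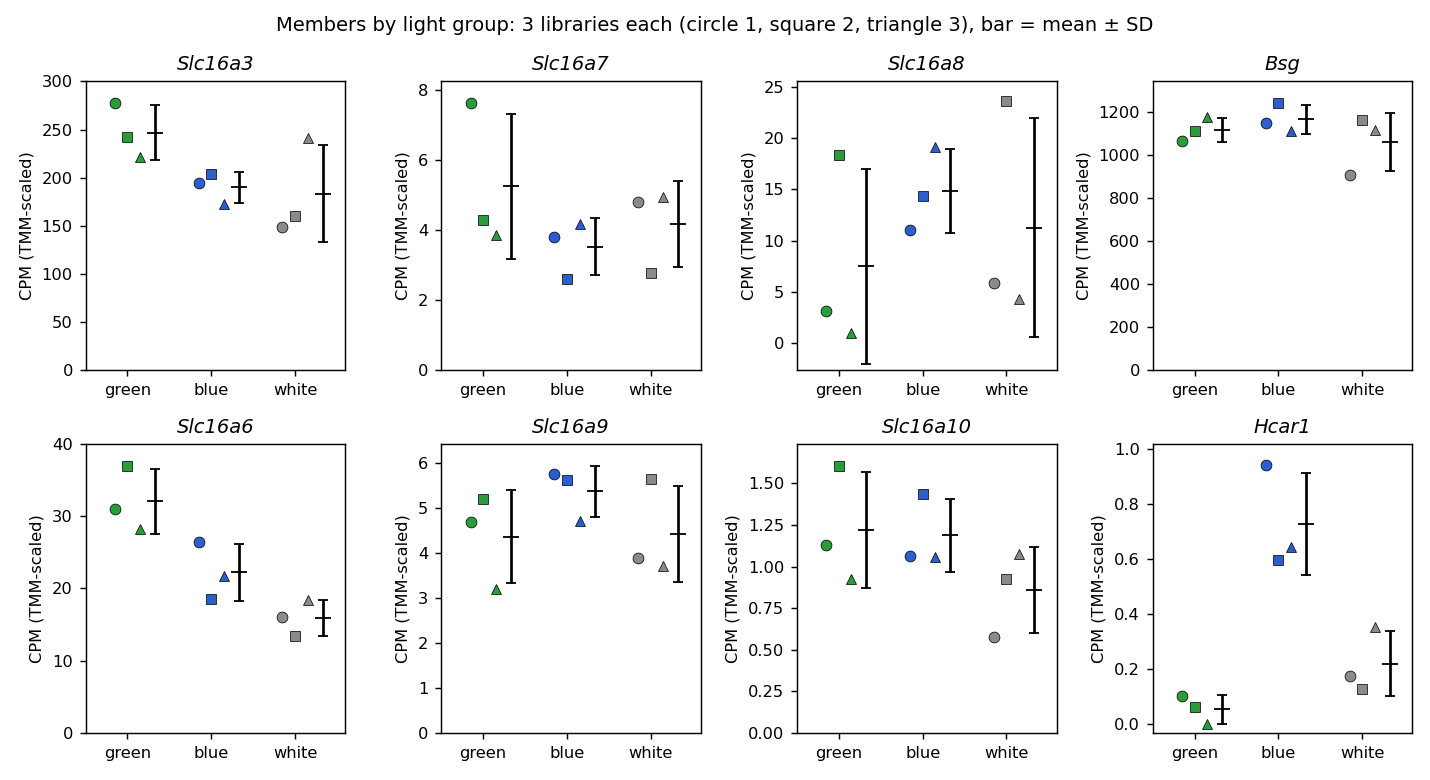
Level of each member in CPM (vertical axes, TMM-scaled) in the 3 green, 3 blue and 3 white libraries; symbols give library 1 (circle), 2 (square) and 3 (triangle), and the black bars the mean ± SD of a group. Slc16a6 and Hcar1, the genes picked for their values, show 3 separate groups, while Slc16a8 spreads from 0.970 to 23.6 CPM with the groups overlapping.

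Slc16a3 encodes MCT4. Its level was 277, 242 and 221 CPM in green libraries 1 to 3, 194, 204 and 172 CPM under blue, and 149, 160.3 and 241 CPM in white. All green libraries lay above all blue ones, whereas library 3 of white reached into the green range. Between green and white the log2 difference was 0.43 ± 0.16 (SE), with a 95% interval of 0.07 to 0.79 (edgeR adjusted p = 0.84). Between green and blue it was 0.38 ± 0.16, with an interval of 0.02 to 0.73 (edgeR adjusted p = 0.684). Groups that do not overlap with the first higher made up 7.23% of all genes in that comparison. Blue and white differed by 0.05 ± 0.16, with an interval of -0.30 to 0.41, and overlapped (edgeR adjusted p = 1).

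The highest green and the highest white library for Slc16a3 are the 2 libraries whose titles end in "-B", a suffix that the sources used here do not explain. Without library 3 of white the green-white difference was 0.67 (edgeR adjusted p = 0.119), and without both suffixed libraries it was 0.57 (edgeR adjusted p = 0.181). Without both of them the green-blue difference was 0.29 and the blue-white difference 0.28 on the log2 scale. Without library 1 of green, which shares its animal number and eye code with library 2, the differences were 0.33 between green and white and 0.29 between green and blue (edgeR adjusted p = 0.99 and 0.849). The part of the suffix in these differences was not tested beyond these values.

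Slc2a1 encodes GLUT1, the glucose transporter of photoreceptors, Müller glia and pigment epithelium. It was singled out after its values were seen, because it followed the same course. Its level was 881, 805 and 700 CPM under green light, 682, 629 and 576 CPM under blue, and 536.5, 619 and 805 CPM in white. Here too every green library lay above every blue one and library 3 of white stood among the green libraries. The highest green and the highest white library were again those with the "-B" suffix, whose part in this likeness was not tested. Pearson's r between the log2 levels of Slc16a3 and Slc2a1 over the 9 libraries was 0.952 and Spearman's rho 0.95, as a description of libraries that share animals, depth and tissue makeup. Pdk1, a gene of pyruvate handling also set beside Slc16a3 after values were seen, had r = 0.559 and rho = 0.5. The green-blue log2 difference of Slc2a1 was 0.34 ± 0.14 (edgeR adjusted p = 0.662).

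Slc16a7, the MCT2 gene, was low, with 7.63, 4.29 and 3.85 CPM under green light, 3.80, 2.62 and 4.17 CPM under blue, and 4.80, 2.77 and 4.95 CPM in white. The 3 groups overlapped, and library 1 of green stood above all others. The log2 difference was 0.33 ± 0.31 between green and white, -0.24 ± 0.31 between blue and white and 0.58 ± 0.31 between green and blue (edgeR adjusted p = 0.965, 1 and 0.734). Without library 1 of green the green-white difference was -0.04. Its level moved against that of the rod markers, with Pearson's r of -0.884 and Spearman's rho of -0.8 over the 9 libraries between log2 levels. It also moved against the Müller glia markers (r = -0.756, rho = -0.783) and the pigment epithelium markers (r = -0.604, rho = -0.483). Library 1 of green also had the lowest summed level of the 8 rod markers, 63450 CPM where the other libraries held 74220 to 82900 CPM; the part of these markers in the Slc16a7 level was not tested.

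Slc16a8, the MCT3 gene of the pigment epithelium, was the most variable of the tested transporters. It stood at 3.21, 18.4 and 0.970 CPM under green light, 11.0, 14.4 and 19.2 CPM under blue, and 5.89, 23.6 and 4.38 CPM in white. Libraries with a common animal number also differed: 5.74-fold between libraries 1 and 2 of green, and 4-fold between libraries 1 and 2 of white. The log2 difference was -0.59 ± 0.85 between green and white, 0.39 ± 0.85 between blue and white and -0.99 ± 0.86 between green and blue (edgeR adjusted p = 0.982, 1 and 0.82). The 95% intervals were wide, from -2.47 to 1.28, from -1.46 to 2.25 and from -2.87 to 0.89. These libraries thus leave a difference of more than 2-fold in either direction unresolved for green against white and for blue against white. Between green and blue they leave one of more than 2-fold with green lower unresolved.

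Against the summed level of the 12 pigment epithelium markers, a list that does not contain Slc16a8, Pearson's r of its log2 level was 0.966 and Spearman's rho 0.983 over the 9 libraries. Rpe65, the isomerase of the visual cycle and a defining gene of that layer, varied 18.6-fold over the libraries. The ratio of Slc16a8 to Rpe65 in CPM was 0.223, 0.18 and 0.125 under green light, 0.18, 0.226 and 0.195 under blue, and 0.131, 0.163 and 0.29 in white, a 2.32-fold range in which the groups overlapped. With the mean log2 level of the pigment epithelium markers as a covariate, the differences of Slc16a8 were 0.18, 0.09 and 0.08 on the log2 scale in the same order of comparisons (edgeR adjusted p = 1, 1 and 0.998). With that covariate, 2 of the 3 differences had the opposite sign to those without it.

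By the same measure, the 5 genes most like Slc16a8 among 12399 named genes with a mean of at least 1 CPM were Tmem51 (r = 0.994), Cldn1 (0.986), Wls (0.985), Flvcr2 (0.983) and Col8a2 (0.979). Cldn1 encodes a tight junction protein and Col8a2 a collagen chain of basement membranes. All 5 were lowest on average in green and highest in blue. Nothing is read from this order, since they were picked for likeness to Slc16a8. Cldn1, for example, averaged 2.67 CPM under green light, 6.33 CPM under blue and 3.92 CPM under white.

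**Figure D2:**
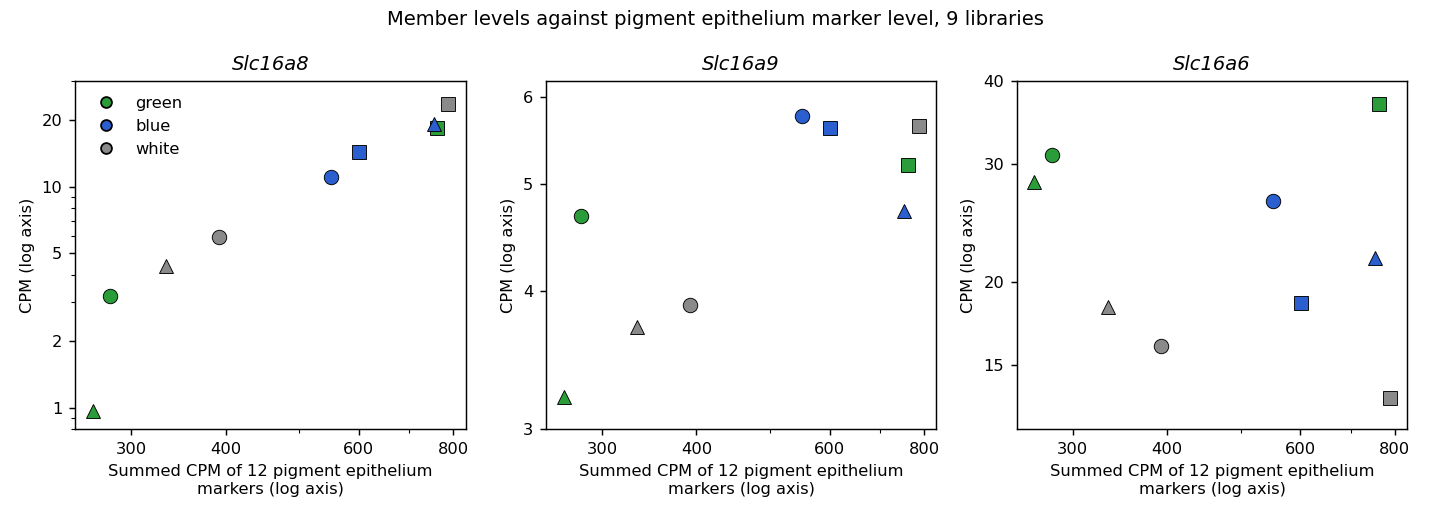
CPM of Slc16a8, Slc16a9 and Slc16a6 (vertical log axes) against the summed CPM of 12 pigment epithelium markers (horizontal log axes) in the 9 libraries, coloured by light and shaped by library number as in the plot of levels by library. Slc16a8 climbs with the markers in all 3 lights (r = 0.966) and Slc16a9 follows more loosely (r = 0.761). For Slc16a6, which was picked for its levels by light, r is -0.191.

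Slc16a9 encodes MCT9, a transporter linked to carnitine efflux. Its level was 4.68, 5.21 and 3.21 CPM under green light, 5.77, 5.63 and 4.72 CPM under blue, and 3.89, 5.65 and 3.72 CPM in white, and the groups overlapped. The log2 difference was -0.02 ± 0.22 between green and white, 0.28 ± 0.22 between blue and white and -0.30 ± 0.22 between green and blue (edgeR adjusted p = 0.999, 1 and 0.798). It followed Slc16a8 with Pearson's r of 0.825 and the pigment epithelium markers with 0.761 over the 9 libraries. With the pigment epithelium level as a covariate the green-blue difference was 0.01 and the green-white difference 0.20.

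Slc16a10 encodes TAT1, which carries aromatic amino acids and thyroid hormone rather than lactate. It was scarce, with 1.13, 1.60 and 0.927 CPM under green light, 1.07, 1.44 and 1.06 CPM under blue, and 0.575, 0.925 and 1.08 CPM in white. The lowest value was library 1 of white, and the groups overlapped in every comparison. The log2 difference was 0.51 ± 0.34 between green and white and 0.47 ± 0.34 between blue and white (edgeR adjusted p = 0.94 and 1). Between green and blue it was 0.04 ± 0.34, with an interval of -0.71 to 0.79 (edgeR adjusted p = 0.986).

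Bsg, the chaperone of the lactate transporters, was the steadiest member. Its level was 1065, 1114 and 1176 CPM under green light, 1150.0, 1242 and 1112 CPM under blue, and 906, 1162 and 1118 CPM in white. Library 1 of white was the lowest and the other 8 libraries lay between 1065 and 1242 CPM. The log2 difference was 0.07 ± 0.10 between green and white (95% interval -0.14 to 0.28), 0.14 ± 0.10 between blue and white (-0.07 to 0.35) and -0.06 ± 0.10 between green and blue (-0.27 to 0.15). The edgeR adjusted p-values were 0.981, 1 and 0.892. These intervals leave room for differences of up to 0.35 on the log2 scale. Slc16a3 and Bsg, whose products form a complex, correlated with r = 0.302 over the 9 libraries.

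**Figure D3:**
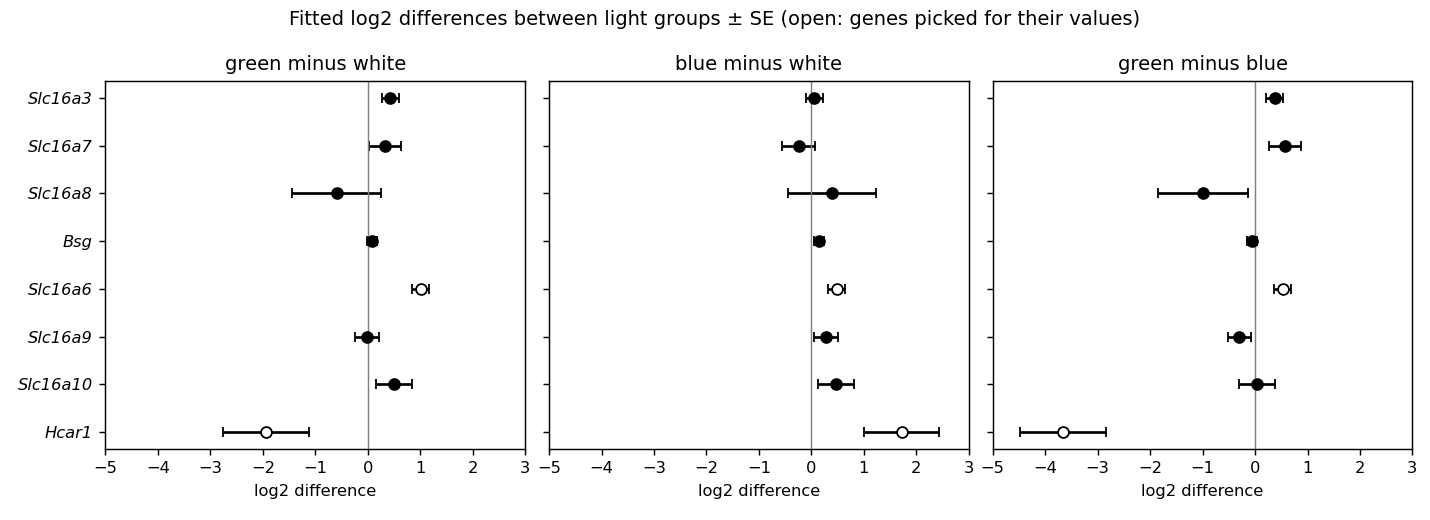
Fitted log2 difference (horizontal axis) of each member in the 3 comparisons, with bars of ± 1 SE; open symbols mark Slc16a6 and Hcar1, the genes picked for their values. Bsg has the narrowest bars (SE 0.10) and lies near 0 throughout, and Slc16a8 and Hcar1 have the widest (SE from 0.71 to 0.86).

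Slc16a6 encodes MCT7, which in liver is linked to the export of ketone bodies. Its level was 31.0, 36.9 and 28.2 CPM under green light, 26.4, 18.6 and 21.7 CPM under blue, and 16.0, 13.4 and 18.3 CPM in white. The lowest green library lay 1.77 CPM above the highest blue one, and the lowest blue library 0.254 CPM above the highest white one. The groups averaged 32.0 ± 4.46, 22.2 ± 3.95 and 15.9 ± 2.47 CPM (SD, n = 3) in green, blue and white. The nearest blue and white libraries thus almost met, although the groups did not overlap. The log2 difference that picked the gene was 1.01 ± 0.16 between green and white and 0.53 ± 0.16 between green and blue, given without a test. Groups without overlap and with green higher made up 5.34% and 7.23% of all genes in these comparisons, from which nothing is read here.

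Blue against white did not pick Slc16a6 but shares the white libraries with the comparison that did. The test given here is therefore not independent of that choice, and nothing is read from its p-value or interval. There the log2 difference was 0.48 ± 0.16, with a 95% interval of 0.13 to 0.83 (edgeR unadjusted p = 0.0117, adjusted p = 0.975). All 3 blue libraries were higher than all 3 white ones, as for 5.75% of all genes. Libraries of a common animal number differed by 1.19-fold in green, 1.17-fold in blue and 1.2-fold in white.

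The level of Slc16a6 had Pearson's r of -0.191 with the pigment epithelium markers. With their level as a covariate the differences of Slc16a6 were 1.03 between green and white, 0.46 between blue and white and 0.57 between green and blue. With the 13 lens markers Slc16a6 had Pearson's r of 0.633 and Spearman's rho of 0.75. Of these 13, 7 were higher in every green than in every white library, as were 5.34% of all genes. The median log2 difference of the 13 was 0.80 between green and white, and Cryaa, a lens crystallin that the retina also makes, had 21.0, 33.1 and 23.4 CPM in green and 0.693, 18.1 and 2.40 CPM in white. The part of pigment epithelium or lens RNA in the level of Slc16a6 was not tested.

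The 5 named genes whose course was most like that of Slc16a6 over the 9 libraries were Map7 (r = 0.972), Drc3 (0.955), Adamts3 (0.953), Vldlr (0.939) and B3galnt2 (0.923). Each averaged highest in green and lowest in white, by smaller ratios than Slc16a6. They were picked for likeness to Slc16a6, so nothing is read from the shared order. Map7, a microtubule-associated protein gene, averaged 213 CPM under green light, 203 CPM under blue and 193 CPM in white, and Vldlr, a lipoprotein receptor gene, 162.0, 149 and 134 CPM. Within the gene set, the member closest to Slc16a6 was Slc16a3 (r = 0.717).

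Hcar1 encodes the lactate receptor, which couples to an inhibitory G protein and lowers cyclic AMP. It was rare: the green libraries had 8, 4 and 0 counts, the blue ones 67, 44 and 44, and the white ones 12, 9 and 22. In CPM these are 0.103, 0.0623 and 0 under green light, 0.940, 0.597 and 0.645 under blue, and 0.177, 0.130 and 0.354 in white. The 0 in library 3 of green allows a level of up to 0.0428 CPM on the same scale, which is 3 counts of that library. That bound covers counting error only and takes each count as a fragment. Low values of the table, described below, put this in doubt, so the bound may be too low. Every blue library was above every white one and every white one above every green one. As a description, without a test, the log2 difference was 1.72 ± 0.71 between blue and white and -3.66 ± 0.81 between green and blue. Groups without overlap made up 5.75% of all genes with blue above white and 6.94% with green below blue.

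Green against white shares libraries with the comparisons that picked Hcar1. The 12 counts of the green group stood against 43 in the white group, a log2 difference of -1.94 ± 0.83, given as a description. Groups without overlap and with the first lower made up 4.74% of all genes. Low values in this table are unevenly spread, with 2014 values of 4 and 472 of 3, so a unit may not be a single fragment and counts as small as those of green are less certain than their number implies. With all counts divided by 4 the difference was -1.85.

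Receptor levels did not track the marker lists closely: over the 9 libraries Pearson's r was 0.445 with the Müller glia markers, 0.366 with the pigment epithelium markers and -0.267 with the ganglion cell markers. Nor did Hcar1 follow the transporter genes, with r between -0.281 (Slc16a7) and 0.473 (Slc16a9). The 5 named genes most like it among 12400 were Snrpg (r = 0.942), Fdxacb1 (0.94), Dmac1 (0.928), Gemin6 (0.916) and Mthfd1l (0.911), all highest on average in blue and lowest in green. These genes were picked for likeness to Hcar1, so nothing is read from the shared order. Snrpg, a gene of the spliceosome core, averaged 12.1 CPM under green light, 16.3 CPM under blue and 13.3 CPM in white. Hcar2, the neighbouring receptor gene for ketone bodies and niacin, had 4 counts in library 3 of green, 9 in library 3 of blue and 0 in the other libraries, and did not pass the filter on low counts.

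The genes around the transporters were followed in 7 lists with 76 genes, of which 72 are in the table and 69 were tested; Ldha, Slc22a5, Dio3 and Ca2 were not analysed here. In edgeR 0 of the 69 passed in any comparison, and DESeq2 called 0 as well. At an unadjusted p under 0.05 stood 5, 6 and 8 of them between green and white, blue and white, and green and blue (7.25%, 8.7% and 11.6%), where the shares of all genes were 5.81%, 4.45% and 7.18%. Groups did not overlap for 7, 6 and 6 of the 69, which is 10.1%, 8.7% and 8.7%, against 10.1%, 9.89% and 14.2% of all genes. The median log2 difference of the 69 was 0.06, 0.03 and 0.02.

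The list of other carriers, SLC16 genes with Slc5a8, Slc5a12 and the chaperone gene Emb, had 9 tested genes of 10. Its medians were 0.17, 0.01 and 0.13 in the 3 comparisons. Slc16a12, a creatine transporter, averaged 11.8 ± 0.279 CPM under green light, 10.8 ± 1.18 CPM under blue and 9.69 ± 1.41 CPM in white. Emb, which encodes embigin, the partner of MCT2, averaged 11.1 ± 2.32, 9.14 ± 0.609 and 10.7 ± 3.65 CPM. Slc16a14, a transporter without an established substrate in this tissue, averaged 9.30 ± 1.56, 8.92 ± 0.661 and 8.07 ± 1.43 CPM.

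Genes of lactate and pyruvate handling, 15 tested of 16, had medians of 0.06, 0.01 and -0.03. Ldhb, the lactate dehydrogenase subunit that favours the use of lactate, averaged 524 ± 46.8 CPM under green light, 538 ± 33.7 CPM under blue and 533.5 ± 18.4 CPM in white. Mpc1, a subunit of the mitochondrial pyruvate carrier, was at 53.9, 53.2 and 59.8 CPM under green light, below all blue libraries (61.3 to 64.8 CPM) and all white ones (61.3 to 67.0 CPM). Its log2 difference was -0.22 ± 0.08 between green and white and -0.19 ± 0.08 between green and blue (edgeR adjusted p = 0.839 and 0.686). Mpc2, the partner subunit, averaged 47.8 ± 4.64, 55.4 ± 6.30 and 50.5 ± 2.96 CPM. Pdk4, a kinase that shuts off pyruvate dehydrogenase, averaged 8.10 ± 4.91, 6.19 ± 0.749 and 6.08 ± 1.80 CPM. Nxnl1, which encodes the rod-derived cone viability factor, a ligand of a basigin isoform, averaged 25.5 ± 1.68, 26.0 ± 1.97 and 27.8 ± 2.70 CPM.

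Ketone body enzymes, 8 tested of 8, had medians of 0.11, 0.01 and 0.008. Bdh1 and Oxct1, enzymes of ketone body use, averaged 7.65 ± 1.30 and 12.0 ± 3.25 CPM under green light, 7.76 ± 0.553 and 10.2 ± 2.47 CPM under blue, and 6.89 ± 0.798 and 10.2 ± 2.54 CPM in white. 0 of these 8 genes passed in any comparison.

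Thyroid hormone genes, 9 tested of 10, had medians of 0.04, 0.19 and -0.14. Slco1c1, a thyroxine transporter, averaged 7.80 ± 1.50, 6.55 ± 1.06 and 4.81 ± 1.43 CPM under green light, blue and white, with a green-white difference of 0.69 ± 0.24 (edgeR adjusted p = 0.837). Slc7a5, a transporter of large neutral amino acids, averaged 50.2 ± 6.78, 55.2 ± 5.0 and 48.8 ± 4.2 CPM. Carnitine and creatine genes, 8 tested of 9, had medians of 0.08, 0.08 and 0.03, with the creatine transporter Slc6a8 at 167 ± 15.4, 158 ± 13.0 and 155 ± 12.5 CPM. The list of lactate receptor signalling, with G protein, arrestin and adenylyl cyclase genes and 13 tested of 14, had medians of 0.02, -0.01 and -0.01. Acid and bicarbonate transport, 8 tested of 10, had medians of 0.10, 0.04 and 0.08. There Ca14, a carbonic anhydrase of Müller glia and pigment epithelium, averaged 159 ± 25.4, 174 ± 13.1 and 165 ± 31.9 CPM, and Slc4a4, a sodium bicarbonate cotransporter, 12.4 ± 3.00, 10.6 ± 1.92 and 9.79 ± 2.35 CPM.

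**Figure D4:**
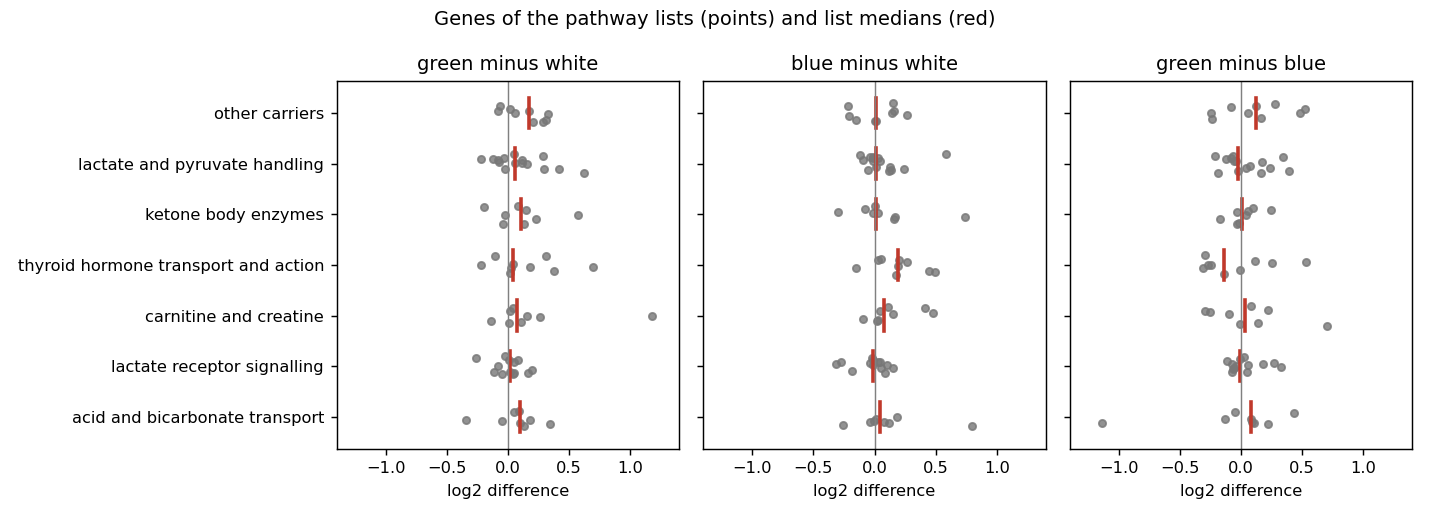
Log2 differences (horizontal axes) of the tested genes of the 7 lists around the transporters in the 3 comparisons, 1 point per gene, with red bars at the list medians and members of the gene set left out. The medians lie between -0.14 and 0.19, and 0 of the 69 genes passed the test.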

How the data were processed

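The table the authors deposited holds whole-number counts per gene for 9 libraries, per the file headers. The sources used here do not give the aligner, counter, strand setting, genome build or annotation. Per the labels' protocols, RNA was extracted with Trizol and sequenced as paired ends on an Illumina HiSeq. The counts were taken as raw because they are whole numbers with different totals per library. The filter was filterByExpr with a minimum count of 10 and a minimum total of 15, which left 15469 genes. All 9 libraries entered a single quasi-likelihood fit in edgeR 4.0.16 (R 4.3.3) with TMM scaling and the light group as the only term. P-values were adjusted by Benjamini-Hochberg over all genes tested, with a threshold of 0.05. Log2 differences carry an SE from the F statistic and 95% intervals on its degrees of freedom. The fit was tested on simulated data. Levels for correlations are log2(CPM + 0.5). Library numbers follow the order of deposition and pair nothing across groups. Alternatives used DESeq2 1.42.0 and limma 3.58.1 among others. The genes named are all members, a fixed set of genes from the lists and, for Slc16a6, Hcar1 and Slc16a8, the 5 genes of highest Pearson's r. Some genes of the fixed set are not reported here. Members, lists and alternatives were chosen with earlier results of these data known. Gene names were used as deposited; all 9 listed names occur in the RefSeq names table of mCavPor4.1, which was used for neighbouring genes only.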

Additional observations from a re-analysis of the deposited data

How the results depend on the processing

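Each of the 3 counts of members called and the 24 log2 differences of members was recomputed under 20 alternatives. The count of members called was 0 in all of them except in DESeq2's Wald test between green and white, where it was 1: Slc16a6, in the difference that picked it, from which nothing is read. For the 6 members not picked for their values the count was 0 throughout. Of 479 recomputed log2 differences 20 changed sign, and each of these missed the threshold under both settings. With the pigment epithelium level as a covariate, Slc16a8 was at 0.18 between green and white and 0.084 between green and blue, and Slc16a9 at 0.20 and 0.013. Without both "-B" libraries the blue-white difference of Slc16a8 was -0.0047. With the suffix as a covariate the green-blue difference of Slc16a10 was -0.017, and with counts summed per animal number it was -0.030, where the blue-white difference of Slc16a3 was -0.047. Leaving out each library in turn gave green-white differences from -0.040 to 0.51 for Slc16a7, -2.43 to 0.54 for Slc16a8, -0.16 to 0.20 for Slc16a9 and -0.033 to 0.14 for Bsg. It gave blue-white differences from -0.087 to 0.28 for Slc16a3 and -0.0046 to 1.53 for Slc16a8, and green-blue differences from -0.21 to 0.20 for Slc16a10 and -2.82 to -0.46 for Slc16a8. The cause of these changes was not tested. Shifts were set against the spread between replicates only for Hcar1 and for the Slc16a6 differences that picked it. For the other results only sign and call were compared, however far a value shifted. Another 19 values moved by more than the spread between replicates without a change of sign, all of them descriptions of Hcar1, 5 between blue and white and 7 in each of the other comparisons. Over all alternatives its blue-white difference ran from 1.45 to 2.30 and its green-blue difference from -4.50 to -3.09, and its green-white difference from -2.79 to -1.38. In a fit of the green and white libraries alone Hcar1 did not pass the filter and had no value. No paired analysis was possible because the labels give no replicate numbers that the groups share. The voom fit took the animal number as a random effect, with an estimated correlation of -0.174. Hcar1 rests on 0 to 67 counts per library, and its differences are limited by that depth.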
